A study of Rattus norvegicus with 10 samples.

Results

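The choroid plexus is the epithelial tissue of the brain ventricles that secretes cerebrospinal fluid, and its transcripts were measured by RNA sequencing in rats fed a control diet or a high fat diet (HFD). The genes described here are 37 genes of pre-mRNA splicing and RNA binding, taken by symbol as every gene starting with SNRP, LSM, SF3, U2AF, PRPF, SRSF, HNRNP or DDX among the 2015 Ensembl identifiers that the study's supplementary gene tables name, out of 32883 identifiers listed for every rat. They comprise 7 SNRP genes, 3 LSM genes, 2 SF3 genes, 2 U2AF genes, 1 PRPF gene, 5 SRSF genes, 13 HNRNP genes and 4 DDX genes, and 0 were left out for a symbol held by more than 1 identifier. Of the 2015 identifiers, 1997 were named by the longer table, and the others only by the study's list of genes that differed between the diets. The longer table was sorted by level and reached down to a control mean of 45.1 TPM. TPM, the unit of the deposited values, is each transcript's length-corrected share of all transcripts. Family members expressed below that control mean are not analysed here. The lowest of the 37 genes on that measure was SRSF9 at 45.6 TPM. Because that measure read the control rats alone, a gene near the limit could enter through high control values.

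All 10 animals were female Wistar rats aged 27 weeks, 5 fed a nutrient source-matched control diet with 10% of its energy from fat and 5 fed the HFD with 60%, each from 6 weeks of age for 21 weeks. Each library came from the choroid plexus of the lateral and 4th ventricles of 1 rat, with no pooling. The study picked its control rats from below one body weight limit and its HFD-fed rats from above a higher one, so that diet and body weight cannot be told apart in these groups. Shares carry no read number. The study states a sequencing output, but the read depth of each rat behind these values is unknown. The TPM were divided by a scaling factor per rat, its median ratio to the geometric mean of all rats over 12037 genes, and these values are called rescaled TPM. Fold changes are HFD minus control on the log2(rescaled TPM + 0.1) scale, tested with limma over the 12198 genes whose mean rescaled TPM reached 1, and all 37 genes described here were among them.

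Splicing removes introns from nascent transcripts on the spliceosome, which is built from small nuclear ribonucleoproteins (snRNPs) and many further proteins. The SNRP genes here encode Sm proteins, which form the ring around the spliceosomal snRNAs, and LSM4 and LSM7 belong to the related Lsm ring that binds U6 snRNA. SF3B1 and SF3B5 are subunits of the U2 snRNP component that holds the branch point, U2AF1 and U2AF2 recognise the 3′ end of the intron, and PRPF19 is a ubiquitin ligase of the catalytically active spliceosome. SR proteins (SRSF) promote exon recognition, the HNRNP proteins coat nascent transcripts and influence splice site choice, and the DDX proteins are RNA helicases.

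The library of control rat 1 was unlike those of the other 9 rats, and the counts, the family medians and the genes described in full are therefore given with and without it. It had 1842 genes more than 2-fold away from the other rats' median, a number that was 171 to 235 for every other rat. Its scaling factor was 0.747 against 0.944 to 1.13, and the mean effective transcript length in its deposited values was 789 bases against 874 to 968. That mean is weighted by TPM, so that it depends on the most abundant transcripts. Genes with a TPM above 0 numbered 16137 in control rat 1, within the range of all rats (16078 to 16703). Across the genes tested, its log2 levels correlated with those of any other rat at 0.925 at most, whereas every pair among the other 9 rats reached at least 0.963 (Pearson, across genes, which are not independent replicates). TTR (transthyretin), the leading choroid plexus transcript, reached 532178 rescaled TPM in control rat 1, above the range of 287847 to 404923 of the remaining rats. Other epithelial transcripts did not all follow TTR. Of 10 markers of the choroid plexus epithelium, TTR included, 3 were above the mean of the other control rats, and the median deviation was -0.47 on the log2 scale. KL, for example, was at 273 in control rat 1 and 379 to 414 in control rats 2 to 5. No extraction or sequencing batch is given in the labels.

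Mean levels of the splicing genes without control rat 1 ran from DDX5 (323 ± 24.5 rescaled TPM, SD, n = 9), a helicase and splicing cofactor, down to SRSF9 (45.7 ± 2.56). HNRNPA2B1, which binds and sorts transcripts, came next to DDX5 with 307 ± 21.6, and the ranges of these genes overlapped. SNRPE, the Sm protein E, followed with 220 ± 18.1, and its highest rat (256) lay below the lowest rat of HNRNPA2B1 (287). That was the single gap in the order, because 35 of the 36 pairs of neighbours had overlapping ranges. The highest level of each family was held by SNRPE, LSM4 (89.7 ± 6.28), SF3B5 (142 ± 11.9), U2AF2 (47.3 ± 2.68), PRPF19 (51.7 ± 2.42), SRSF5 (191 ± 23.8), HNRNPA2B1 and DDX5. The highest U2AF gene was U2AF1 once control rat 1 was counted, with a mean of 48.8 over 10 rats against 47.0 for U2AF2. Both U2AF subunits form 1 dimer, and their ranges among 9 rats overlapped.

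**Figure D1:**
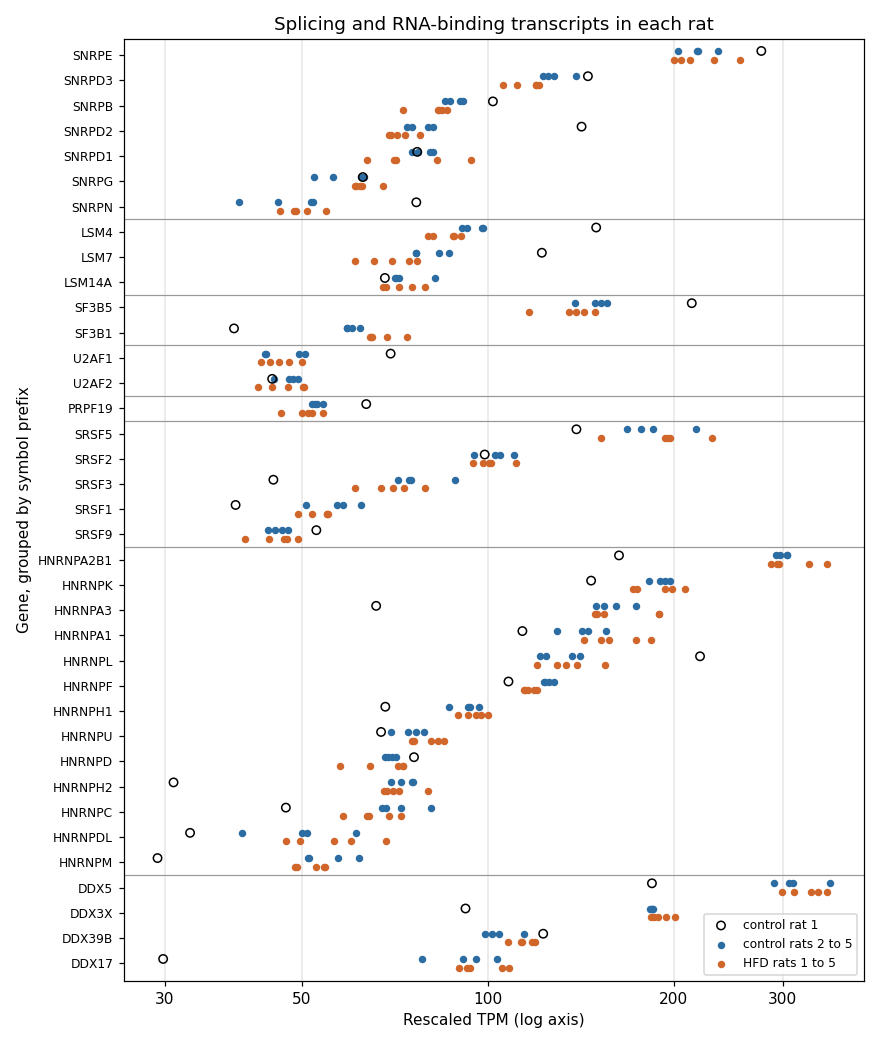
Rescaled TPM (log axis) of the 37 splicing and RNA-binding genes in each rat, grouped by symbol prefix, with control rats 2 to 5 in blue, HFD-fed rats in orange and control rat 1 as an open circle. Control rat 1 lies outside the range of the other 9 rats to the right for 14 genes and to the left for 18.

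Summed over the 37 genes, control rats 2 to 5 held 3936 to 4083 rescaled TPM and HFD-fed rats 3789 to 4277, so that the ranges of the diets overlapped. Control rat 1 held 3626. As a share of the TPM deposited for each rat, the 37 genes made up 0.271% in control rat 1 and 0.393% to 0.441% in the other 9 rats. The coefficient of variation was 6.11% for the median gene in control rats 2 to 5, from 0.513% for DDX3X to 17.1% for HNRNPDL, and 6.83% in HFD-fed rats, from 2.14% for HNRNPF to 15.7% for SNRPD1.

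The first question was whether splicing transcripts differ between HFD-fed and control rats. Of the 37 genes, 4 had an unadjusted p under 0.05 (10.8%), where the share among all 12198 genes tested was 8.59%. SF3B1 and HNRNPA1 were the 2 with higher levels in HFD-fed rats, against 3.76% of all genes, and SNRPD3 and LSM7 the 2 with lower levels, against 4.83%. None passed the Benjamini-Hochberg adjustment over all genes in limma, with 0 of 37 genes called and 0.0% of all genes, and the smallest adjusted p among the 37 was 0.542. The study's own test, DESeq2 on read counts, did call genes between the diets at an adjusted p under 0.05. Limma on rescaled TPM is another test, so that 0.0% does not mean that no gene differs. By the mean alone, 19 of the 37 were lower and 18 higher in HFD-fed rats (47.3% of all genes were lower), and their median log2 fold change was -0.0015 beside 0.013 over all genes. The values ran from -0.34 for LSM7 to 0.41 for DDX17.

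Without control rat 1, 6 of the 37 genes (16.2%) had an unadjusted p under 0.05, where the share over all genes was 11.7%. The 2 higher in HFD-fed rats were SF3B1 and DDX39B (5.41% of all genes) and the 4 lower were SNRPD3, LSM4, LSM7 and HNRNPF (6.33% of all genes). Again 0 of 37 and 0.0% of all genes had an adjusted p under 0.05 in limma, and the smallest adjusted p of the 37 genes was 0.300. With the TPM as deposited, without the rescaling, 2 of the 37 genes, LSM7 and HNRNPA1, had an unadjusted p under 0.05, beside 5.11% of all genes. On that scale the median difference was 0.115 over all genes and 0.102 over the 37 genes. The number lower in HFD-fed rats was then 9 of 37 (27.0% of all genes), against 19 with the rescaled values and 21 without control rat 1 (49.7% of all genes).

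**Figure D2:**
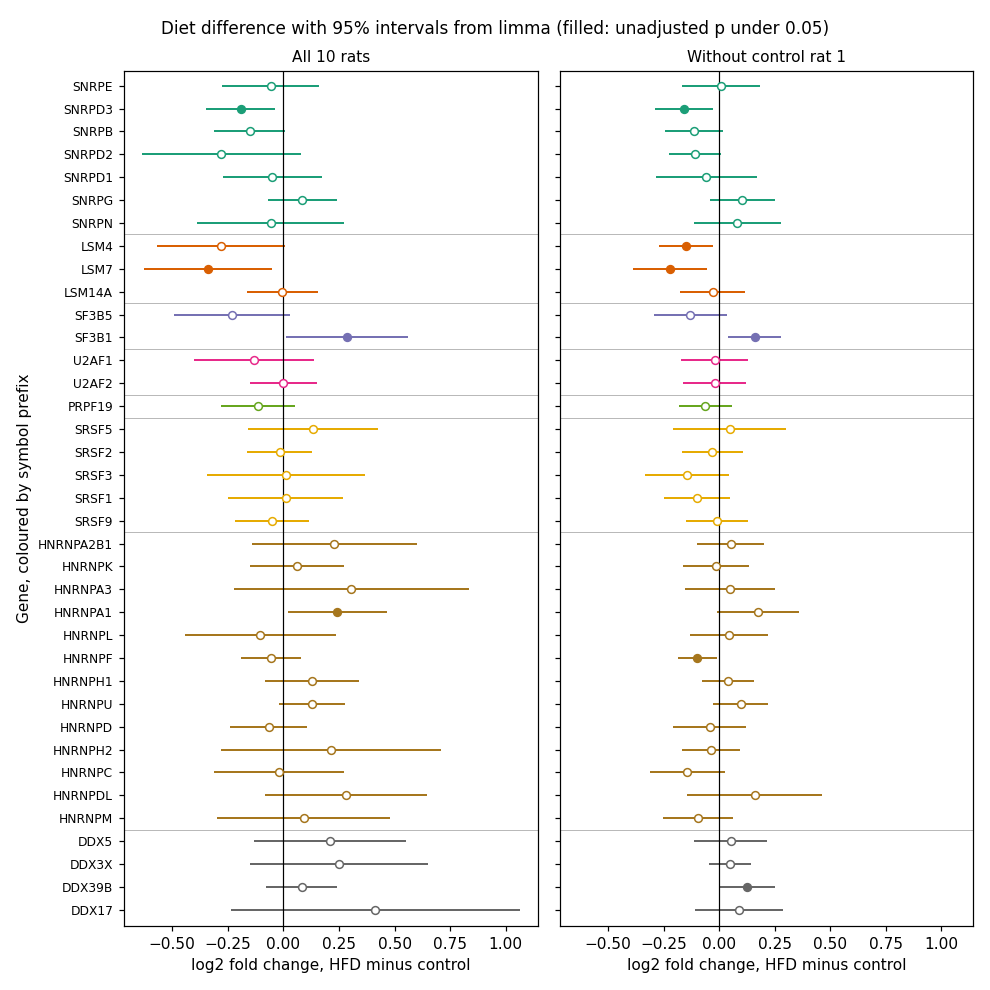
Log2 fold change (HFD minus control) of the 37 genes with 95% confidence intervals from limma, over all 10 rats on the left and without control rat 1 on the right, coloured by symbol prefix. Filled circles mark an unadjusted p under 0.05, which 4 genes had over all rats and 6 without control rat 1, and the intervals are narrower on the right.

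The precision of these comparisons depended on control rat 1. Over all rats, the 95% confidence interval of the log2 fold change lay within ±0.5, a 1.41-fold difference, for 26 of the 37 genes and for 58.4% of all genes. Without control rat 1 it did so for 37 of 37 genes and for 75.5% of all genes, and the median half-width of the intervals was 0.14 instead of 0.26. The greatest difference in either direction was then 0.22, for LSM7. Control rat 1 was set apart for its deviation in these same data, so that leaving it out narrows the intervals in part by construction. Each interval holds for a single gene and not for all 37 genes at once. Over all rats, the interval of DDX17 reached 1.06, and no limit on the differences is drawn from the 9 rats.

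The genes with an unadjusted p under 0.05 over all rats are shown with the 250 bases upstream of their transcription start in RefSeq (assembly GRCr8, another build than the Rnor_6.0 of the deposited values). Their share of the 37 genes (10.8%) was near that of all genes (8.59%), and they went in both directions. The sequences are therefore a description, and a common regulator was not tested. Capitals mark matches, on either strand, to a CCAAT box (CCAAT, or ATTGG on the other strand), a GC box (GGGCGG, or CCGCCC on the other strand), a TATA box (TATAAA, or TTTATA on the other strand) or an ETS-type site (CCGGAAGT, or ACTTCCGG on the other strand), and every sequence is written 5′ to 3′ along the gene.
SF3B1 promoter, GRCr8 chr9:64026720-64026969, minus strand: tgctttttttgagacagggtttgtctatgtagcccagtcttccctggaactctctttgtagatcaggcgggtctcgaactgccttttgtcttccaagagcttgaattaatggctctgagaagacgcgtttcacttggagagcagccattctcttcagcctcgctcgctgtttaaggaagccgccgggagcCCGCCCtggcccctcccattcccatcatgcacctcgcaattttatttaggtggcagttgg
HNRNPA1 promoter, GRCr8 chr7:136253868-136254117, plus strand: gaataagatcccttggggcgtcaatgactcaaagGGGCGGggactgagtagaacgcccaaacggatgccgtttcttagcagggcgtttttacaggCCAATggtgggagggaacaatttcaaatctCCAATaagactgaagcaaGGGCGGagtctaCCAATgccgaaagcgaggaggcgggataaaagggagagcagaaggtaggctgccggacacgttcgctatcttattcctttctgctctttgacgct
SNRPD3 promoter, GRCr8 chr20:13144921-13145170, minus strand: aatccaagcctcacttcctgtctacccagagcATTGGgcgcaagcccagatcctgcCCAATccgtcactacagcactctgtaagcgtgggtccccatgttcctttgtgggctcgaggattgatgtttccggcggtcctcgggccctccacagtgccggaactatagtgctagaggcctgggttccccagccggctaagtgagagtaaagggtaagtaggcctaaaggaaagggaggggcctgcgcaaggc
LSM7 promoter, GRCr8 chr7:9507123-9507372, plus strand: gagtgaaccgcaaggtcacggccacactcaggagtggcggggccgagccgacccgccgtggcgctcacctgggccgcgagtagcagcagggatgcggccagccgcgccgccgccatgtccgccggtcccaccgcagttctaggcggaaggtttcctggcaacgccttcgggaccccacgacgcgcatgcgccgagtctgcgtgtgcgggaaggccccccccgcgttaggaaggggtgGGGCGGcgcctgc
The HNRNPA1 window held 3 CCAAT boxes and 2 GC boxes, the SNRPD3 window 2 CCAAT boxes, and the SF3B1 and LSM7 windows 1 GC box each, so that no motif of the search was common to all 4.

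Promoter entries were found for 35 of the 37 genes, with 39 entries in all. The CCAAT box was present in 56.4% of these windows, against 34.0% of all 33469 promoter windows of the same length. The GC box was present in 53.9% against 30.5%, the TATA box in 18.0% against 12.9% and the ETS-type site in 12.8% against 3.10%. The windows of the splicing genes were also richer in G and C, with a median of 60% against 51.2%, and the part of base composition in these shares was not tested. All promoters of the table, also those of genes not expressed in choroid plexus, made up the comparison, so that the shares are a description.

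Among the Sm proteins, 6 of 7 transcripts had a lower mean in HFD-fed rats (47.3% of all genes), and 4 of 7 without control rat 1 (49.7% of all genes). Their median log2 fold change was -0.06 in both fits, whereas with the TPM as deposited 3 of 7 were lower (27.0% of all genes) and the median was 0.05. SNRPD3, the Sm protein D3, was the 1 with an unadjusted p under 0.05. It was at 145, 128, 139, 125 and 123 rescaled TPM in control rats 1 to 5 and at 112, 120, 120, 121 and 106 in HFD-fed rats 1 to 5. Every HFD-fed rat lay below every control rat, an order that 2.02% of all genes had. The means were 132 ± 9.60 and 115 ± 6.54 (SD, n = 5), a log2 fold change of -0.19 ± 0.07 (SE, limma, unadjusted p = 0.016, adjusted p = 0.542), and the exact two-sided permutation test gave p = 0.0079, the smallest that 5 against 5 rats allows. The difference was -0.16 ± 0.06 without control rat 1 (limma, adjusted p = 0.332) and -0.09 with the TPM as deposited (limma, unadjusted p = 0.333).

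SNRPE was the most abundant Sm transcript, with 277, 219, 204, 236 and 218 rescaled TPM in control rats 1 to 5 and 212, 256, 232, 200 and 206 in HFD-fed rats. The groups overlapped, and the log2 fold change of -0.06 ± 0.10 (SE) had a 95% interval from -0.27 to 0.16. It came to 0.0090 (interval -0.16 to 0.18) when control rat 1, its highest rat, was left out. For SNRPB, the Sm protein B, control rats lay between 85.1 and 102 and HFD-fed rats between 72.9 and 86.0 (log2 fold change -0.15, unadjusted p = 0.052 in limma, and -0.11 without control rat 1). SNRPD2 was at 142 in control rat 1, 74.1 to 81.4 in the other control rats and 69.1 to 77.7 in HFD-fed rats, and its difference went from -0.28 to -0.11 when control rat 1 was left out. SNRPG was the 1 Sm transcript with a higher mean in HFD-fed rats (log2 fold change 0.09, interval -0.07 to 0.24, and 0.10 without control rat 1). SNRPN, an imprinted gene best known for its product in neurons, was detected in every rat at 39.5 to 76.6, and its difference changed sign, from -0.06 to 0.08, without control rat 1.

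Of the Lsm genes, both members of the Lsm ring had lower means in HFD-fed rats. LSM7 was at 122, 86.5, 83.3, 76.4 and 76.4 rescaled TPM in control rats 1 to 5 and at 60.8, 65.4, 76.6, 69.8 and 74.4 in HFD-fed rats. HFD-fed rat 3 alone, at 76.6, reached the level of the lowest control rats. The means were 89.0 ± 19.1 and 69.4 ± 6.46 (SD, n = 5), a log2 fold change of -0.34 ± 0.13 (SE, limma, unadjusted p = 0.023, adjusted p = 0.553), the most negative of the 37 genes. In the 9 other rats it was -0.22 ± 0.07 (limma, unadjusted p = 0.013, adjusted p = 0.304).

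LSM4 was at 150, 98.1, 98.0, 92.5 and 90.7 rescaled TPM in control rats 1 to 5 and at 88.1, 90.4, 81.6, 80.0 and 87.6 in HFD-fed rats. Every HFD-fed rat lay below every control rat, and the closest rats of the groups were at 90.7 and 90.4. The difference was -0.28 ± 0.13 over all rats (SE, limma, unadjusted p = 0.050, adjusted p = 0.572) and -0.15 ± 0.05 without control rat 1 (limma, unadjusted p = 0.016, adjusted p = 0.323), and the exact permutation p over all rats was 0.0079. LSM14A, which belongs to cytoplasmic messenger RNA granules and not to the Lsm ring, was at 68.1 to 82.0 in control rats and 67.6 to 79.0 in HFD-fed rats, a log2 fold change of -0.0052 with an interval from -0.16 to 0.15 (-0.03 without control rat 1). The median of the 3 LSM genes was -0.28 over all rats, -0.15 without control rat 1 and -0.18 with the TPM as deposited.

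The SF3b subunits went in opposite directions by the mean. SF3B1, the subunit that contacts the branch point, was at 38.8, 59.1, 59.2, 62.0 and 60.2 rescaled TPM in control rats 1 to 5 and at 68.7, 73.9, 64.6, 64.4 and 64.9 in HFD-fed rats. Every HFD-fed rat lay above every control rat, an order that 1.4% of all genes had, and it was the 1 gene of the 37 with this order. The means were 55.9 ± 9.60 and 67.3 ± 4.11 (SD, n = 5), a log2 fold change of 0.29 ± 0.12 (SE, limma, unadjusted p = 0.040, adjusted p = 0.569), with an exact permutation p of 0.0079. Leaving out control rat 1, the lowest of all rats, brought it to 0.16 ± 0.05 (limma, unadjusted p = 0.012, adjusted p = 0.300).

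SF3B5, the small subunit of the same complex, was at 214, 152, 149, 156 and 138 rescaled TPM in control rats 1 to 5 and at 143, 149, 139, 117 and 136 in HFD-fed rats. The groups overlapped, and the log2 fold change of -0.23 ± 0.12 (SE) had an interval from -0.49 to 0.02. Once control rat 1 was left out it was -0.13, with an interval from -0.29 to 0.03.

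Both U2AF subunits and PRPF19 gave differences whose intervals held 0. U2AF1 was at 69.6, 49.5, 43.6, 50.5 and 43.7 rescaled TPM in control rats 1 to 5 and at 45.9, 49.9, 47.7, 44.4 and 42.9 in HFD-fed rats, and its difference was -0.13 over all rats and -0.02 (interval -0.17 to 0.13) without control rat 1. U2AF2, the subunit that binds the polypyrimidine tract, was at 44.7 to 49.3 in control rats and 42.5 to 50.3 in HFD-fed rats, and its difference was -0.0015 (interval -0.15 to 0.14), with -0.02 without control rat 1 and 0.10 with the TPM as deposited. PRPF19 was at 63.5, 52.4, 54.1, 51.9 and 53.0 in control rats 1 to 5 and at 51.1, 50.1, 46.2, 54.2 and 52.0 in HFD-fed rats, so that 1 HFD-fed rat lay above control rats 2 to 5 (log2 fold change -0.11, interval -0.28 to 0.05, and -0.06, interval -0.18 to 0.05, without control rat 1).

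None of the 5 SR proteins had an unadjusted p under 0.05 with or without control rat 1, and their median log2 fold change was 0.01 over all rats, -0.03 without it and 0.11 with the TPM as deposited. SRSF5 led the family with 139, 217, 168, 185 and 177 rescaled TPM in control rats 1 to 5 and 193, 230, 197, 153 and 196 in HFD-fed rats. The diets overlapped, and the log2 fold change was 0.13 ± 0.13 (SE, interval -0.15 to 0.42), or 0.05 (interval -0.20 to 0.30) without control rat 1, its lowest rat. SRSF2 stayed between 94.8 and 111 in all rats, with the narrowest interval of the family over all rats (-0.16 to 0.12). SRSF1 and SRSF3, the founding member and the smallest of the family, had their lowest value in control rat 1 (39.0 and 44.9). Their differences changed sign without it, from 0.01 to -0.10 for SRSF1 and from 0.01 to -0.14 for SRSF3. SRSF9 was at 44.0 to 52.8 in control rats and 40.5 to 49.2 in HFD-fed rats.

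Of the 13 HNRNP genes, 9 had a higher mean in HFD-fed rats over all rats and 7 without control rat 1, with medians of 0.13 and 0.04. In these fits 47.3% and 49.7% of all genes were lower. With the TPM as deposited, 12 of the 13 were higher (median 0.23), where 27.0% of all genes were lower and their median was 0.115. HNRNPA1, a shuttling protein that represses exon inclusion at many sites, was the 1 HNRNP gene with an unadjusted p under 0.05 over all rats. It was at 114, 155, 129, 145 and 142 rescaled TPM in control rats 1 to 5 and at 157, 184, 174, 152 and 143 in HFD-fed rats. HFD-fed rats 4 and 5 lay within the control range. The means were 137 ± 16.0 and 162 ± 16.6 (SD, n = 5), a log2 fold change of 0.24 ± 0.10 (SE, limma, unadjusted p = 0.032, adjusted p = 0.565), with an exact permutation p of 0.056. In the other 9 rats the difference was 0.18 with an interval from -0.0045 to 0.36 (limma, unadjusted p = 0.055).

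HNRNPA2B1 was the most abundant HNRNP transcript, with 163, 298, 305, 293 and 305 rescaled TPM in control rats 1 to 5 and 296, 331, 354, 287 and 294 in HFD-fed rats. Control rats 2 to 5 lay between 293 and 305, inside the HFD range, and the difference went from 0.23 to 0.05 (interval -0.09 to 0.20) without control rat 1. HNRNPF, which binds G-rich sequences, was at 108, 123, 124, 128 and 126 in control rats 1 to 5 and at 114, 120, 119, 116 and 115 in HFD-fed rats. Control rats 2 to 5 all lay above the HFD-fed rats, while control rat 1 lay below them. Its difference was -0.05 (limma, unadjusted p = 0.380) over all rats and -0.10 ± 0.04 (SE, limma, unadjusted p = 0.026, adjusted p = 0.364) without control rat 1. With this gene, 3 of the 37 genes had all HFD-fed rats below control rats 2 to 5, together with SNRPD3 and LSM4 (2.73% of all genes), and SF3B1 alone had them all above (2.23% of all genes).

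The other HNRNP genes had intervals that held 0 in both fits. Over all rats, HNRNPU, a chromatin-associated scaffold protein, came closest to an interval without 0, with a log2 fold change of 0.13 (interval -0.02 to 0.27). Its value was 0.10 without control rat 1. HNRNPDL and HNRNPA3 had the greatest positive values of the family over all rats, 0.28 and 0.31, and came to 0.16 and 0.05 without control rat 1. The signs of HNRNPK, HNRNPL, HNRNPM and HNRNPH2 turned when control rat 1 was left out. HNRNPL, for example, was at 221 in control rat 1, 122 to 141 in the other control rats and 120 to 155 in HFD-fed rats, and went from -0.10 to 0.05. HNRNPC, a protein that packages nascent transcripts, was at 47.1 in control rat 1 and went from -0.02 to -0.14 (interval -0.31 to 0.02).

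All 4 DDX genes had higher means in HFD-fed rats over all rats, without control rat 1 and with the TPM as deposited. In the same fits, 47.3%, 49.7% and 27.0% of all genes were lower, in that order. DDX17 had the greatest positive value of the 37 genes and also the widest interval. It was at 29.8, 78.3, 91.1, 95.5 and 103 rescaled TPM in control rats 1 to 5 and at 92.5, 89.7, 93.6, 105 and 108 in HFD-fed rats. Control rats 2 to 5 overlapped with the HFD-fed rats, whereas control rat 1 was far below all others, and the log2 fold change of 0.41 ± 0.29 (SE, interval -0.23 to 1.06) came to 0.09 (interval -0.10 to 0.28) without it. DDX5, the most abundant of the 37 genes, was at 184, 358, 291, 312 and 307 in control rats 1 to 5 and at 333, 355, 343, 299 and 313 in HFD-fed rats, and its difference went from 0.21 to 0.05 (interval -0.11 to 0.21). DDX3X, a helicase of translation initiation, was at 92.0 in control rat 1, 183 to 185 in the other control rats and 184 to 201 in HFD-fed rats, and went from 0.25 to 0.05. DDX39B, which acts in spliceosome assembly and messenger RNA export, differed in that control rat 1 was its highest rat, at 123. The other control rats were at 99.0 to 114 and HFD-fed rats at 108 to 119, and the difference went from 0.08 to 0.13 ± 0.05 (SE, limma, unadjusted p = 0.039, adjusted p = 0.396).

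**Figure D3:**
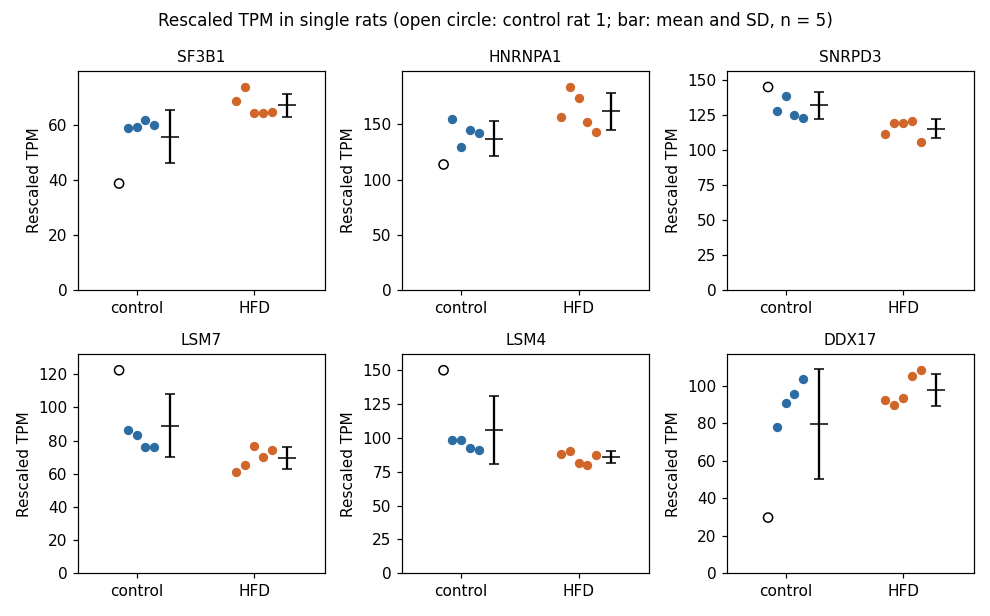
Rescaled TPM of SF3B1, HNRNPA1, SNRPD3, LSM7, LSM4 and DDX17 in single rats on axes that start at 0, with control rat 1 as an open circle and bars for the mean and SD of 5 rats. The HFD-fed rats of SF3B1 lie above all control rats and those of SNRPD3 and LSM4 below them, while in DDX17 control rat 1, at 29.8, is the single rat outside a common range.

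Control rat 1 deviated in opposite directions in different families. Against the mean of the other control rats, the median deviation on the log2 scale was 0.60 for LSM, 0.27 for PRPF19, 0.24 for U2AF and 0.21 for SNRP genes, with SNRPD2 highest at 0.87. It was -0.42 for SRSF, -0.44 for HNRNP and -0.89 for DDX genes, with DDX17 lowest at -1.62. Of the 13 HNRNP genes, 11 were below the other control rats, with HNRNPL (0.76) and HNRNPD (0.13) as the exceptions, and of the 7 SNRP genes 6 were above. It was over 2-fold below for DDX17, DDX3X, HNRNPA3 and HNRNPH2, 4 of 37 genes (10.8%), where 11.7% of all genes were, and over 2-fold above for 0 of 37 (3.3% of all genes). Outside the range of the other 9 rats, it was above for 14 genes and below for 18, where 32.6% and 33.6% of all genes were. Since control rat 1 is 1 of the 5 rats of the control mean, each of these deviations moves the diet difference over all rats the opposite way by construction.

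**Figure D4:**
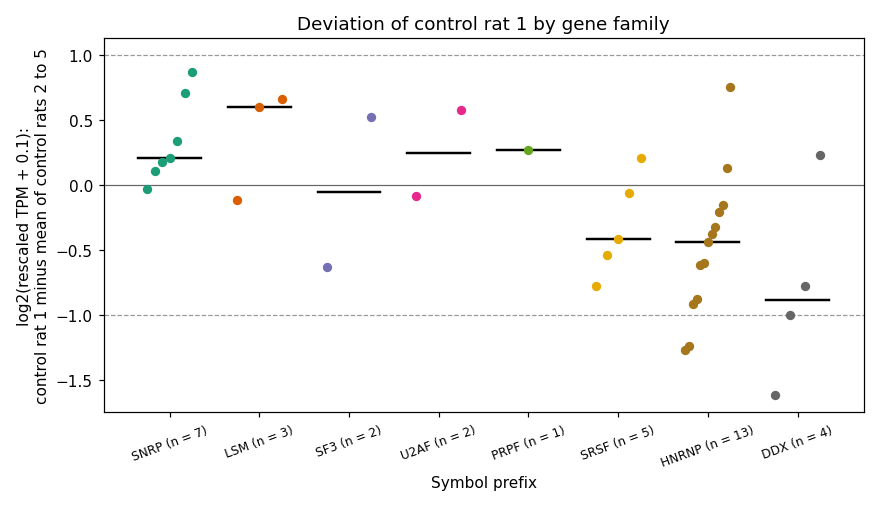
Difference between control rat 1 and the mean of control rats 2 to 5 in log2(rescaled TPM + 0.1) for each of the 37 genes, by symbol prefix, with black lines at the family medians and dashed lines at a 2-fold difference. The LSM median lies at 0.60 and the DDX median at -0.89, with DDX17 lowest at -1.62.

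Related gene pairs, which can share reads, are set side by side as log2 ratios of their rescaled TPM. RSEM shares reads that match several genes among them, so that single levels of these genes are less certain, as are those of HNRNPA1, which has many processed copies in mammalian genomes. The log2 ratio of HNRNPH1 to HNRNPH2 was 0.19 to 0.41 in control rats 2 to 5, 0.26 to 0.54 in HFD-fed rats and 1.14 in control rat 1. That of DDX5 to DDX17 was 1.57 to 2.19, 1.51 to 1.98 and 2.63. For HNRNPA1 to HNRNPA3 it was -0.29 to -0.04, -0.12 to 0.06 and 0.79. HNRNPD to HNRNPDL gave 0.19 to 0.78, 0.06 to 0.55 and 1.20. SNRPB to SNRPN gave 0.75 to 1.10, 0.61 to 0.82 and 0.41, so that the diets overlapped in all 5 ratios and control rat 1 was outside the range of the other rats in each.

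Other genes of the pathway came from a list of 20 core spliceosome and messenger ribonucleoprotein genes and a list of 13 other RNA-binding regulators, all of them named and tested. In the first, 0 genes were higher and 3 lower at an unadjusted p under 0.05, beside 3.76% and 4.83% of all genes. By the mean, 15 of 20 were lower in HFD-fed rats (17 without control rat 1, and 8 with the TPM as deposited), beside 47.3% of all genes (49.7% and 27.0%), and their median was -0.07 beside 0.013 over all genes. The 3 were TXNL4A, a component of the U5 snRNP (log2 fold change -0.31, exact permutation p = 0.016), UBL5, a small ubiquitin-like protein needed for splicing (-0.23, exact permutation p = 0.0079), and SNRNP25 of the minor spliceosome (-0.17, exact permutation p = 0.032). Their adjusted p in limma ran from 0.543 to 0.569. Without control rat 1 the values were -0.20 for TXNL4A, -0.15 for UBL5 and -0.19 for SNRNP25. With the TPM as deposited they were -0.20, -0.13 and -0.07, and UBL5 and SNRNP25 no longer had an unadjusted p under 0.05 in limma. UBL5 was at 781 rescaled TPM in control rat 1, 547 to 620 in the other control rats and 487 to 542 in HFD-fed rats, so that the groups did not overlap, an order that 2.02% of all genes had. With control rat 1 left out, 5 of the 20 were lower and 0 higher at an unadjusted p under 0.05, beside 6.33% and 5.41% of all genes, as CCDC12 (-0.15) and ERH (-0.14) joined these 3. Names in the longer table reached down to a control mean of 45.1 TPM, so that a gene near that limit could enter through high control values. CCDC12 was at 77.9 rescaled TPM in control rat 1, 41.2 to 46.3 in the other control rats and 36.6 to 42.2 in HFD-fed rats. The part of this limit in the counts was not tested. Among the 13 regulators, 0 had an unadjusted p under 0.05 in limma with or without control rat 1, and the median was 0.02. Lower by the mean in HFD-fed rats were 4 of the 13 (7 without control rat 1, and 2 with the TPM as deposited), beside 47.3% of all genes (49.7% and 27.0%).

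Markers of the cell types that a dissected choroid plexus can hold were all above 0 in every rat. Among the 10 epithelial markers, KL, the klotho gene (log2 fold change 0.27, exact permutation p = 0.0079), and HTR2C, the serotonin receptor 2C (0.20, exact permutation p = 0.016), were higher in HFD-fed rats with an unadjusted p under 0.05 in limma, and 0 were lower, beside 3.76% and 4.83% of all genes. Without control rat 1, their values were 0.16 and 0.19, and the water channel AQP1 was lower in HFD-fed rats (-0.18, 545 to 651 rescaled TPM in control rats 2 to 5 and 469 to 564 in HFD-fed rats), also with an unadjusted p under 0.05. Over all rats, the adjusted p of KL and HTR2C in limma were 0.565 and 0.542. None of the 4 stromal, 3 macrophage and 4 blood markers, of PLVAP (endothelium) or of RGS5 (mural cells) had an unadjusted p under 0.05 in limma over all rats. In the fit without control rat 1, the stromal marker OGN was lower in HFD-fed rats (114 to 140 rescaled TPM in control rats 2 to 5 and 31.2 to 79.7 in HFD-fed rats, log2 fold change -1.44), while control rat 1 was at 10.6, below every HFD-fed rat. The other 3 stromal markers had positive values in that fit (DCN 0.19, FMOD 0.09 and MGP 0.08). Control rat 1 was apart in many of these markers, but not in all. It had 42.8 rescaled TPM of RGS5 against 101 to 129 in the others, and 97.5 of PLVAP against 51.1 to 67.2. Its blood markers summed to 7803 against 3102 to 6908, with HBA-A1 and HBA-A2 above all other rats and HBB and HBB-BS within their range. Of the macrophage markers, LYZ2 and RT1-DA in control rat 1 were below all other rats, and CD74 was within their range. Of the stromal markers, FMOD was above all other rats, DCN and OGN were below them, and MGP was within their range. The part of cell makeup in the levels of the splicing genes was not tested, and in these bulk libraries fewer cells of a type and less RNA per cell cannot be told apart.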

How the data were processed

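RNA of the choroid plexus from 10 rats, 1 library per rat, was prepared with the NEBNext Ultra RNA kit, which does not mark the strand, and sequenced as paired ends. Alignment by the authors used STAR and the build Rnor_6.0 (release 2.7.2a in the submitters' processing notes, while the study's methods name another release), and RSEM (1.3.3) gave the TPM and FPKM that the authors deposited for each gene with 2 decimals. The deposited FPKM were a constant multiple of the TPM within a rat and were read only for the mean effective length. With no counts in these values, no count test was run, the read depth of each rat is unknown, and no counting interval is given.

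Gene symbols came from the study's supplementary gene tables, of which the longer copy was shortened, and were joined by Ensembl identifier. The genes, the lists and the tests were chosen with earlier results of these data known. Full values were given for genes with an unadjusted p under 0.05, for the most abundant gene of each prefix and for the largest differences in each direction, and the other genes are given by values or ranges chosen after they were seen. Scaling factors were centred on a geometric mean of 1 over the rats. The main test was lmFit and eBayes with a trend in limma 3.58.1 (R 4.3.3) on log2(rescaled TPM + 0.1) with diet as the only term, adjusted by Benjamini-Hochberg over 12198 genes at 0.05. Exact two-sided permutation tests ran over 252 assignments, with a smallest p of 0.0079. Rats are separate animals and are the replicates. Same-numbered rats are not paired by the labels, and the correlations of their deviations from the diet means were 0.116, -0.038, 0.011, 0.060 and 0.106. Summaries used python 3.11.15, numpy 2.4.6, pandas 2.3.3 and matplotlib 3.10.9. Alternatives were other scalings, pseudocounts, filters, variance models, sample weights, a replicate block and leaving out each rat, and the TPM as deposited without control rat 1 were added after seeing the data.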

Additional observations from a re-analysis of the deposited data

Results flagged for a closer look

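In each diet group of 5 rats, the gap between an extreme rat and its nearest neighbour was divided by the whole range of the group, and values above Dixon's limit of 0.71 were noted. Of the 74 groups (37 genes in each of the diets), 16 passed the limit, where about 3.7 would by chance, and 13 of the 16 were control rat 1. It was the high rat for SNRPD2 (0.891), LSM4 (0.874), PRPF19 (0.808), HNRNPL (0.803), LSM7 (0.778), SF3B5 (0.764) and U2AF1 (0.734). It was the low rat for DDX3X (0.976), HNRNPA2B1 (0.916), SF3B1 (0.875), HNRNPH2 (0.865), HNRNPA3 (0.779) and HNRNPF (0.761). The 3 others were the low value of SNRPB in HFD-fed rat 4 (0.771), the high value of SNRPG in HFD-fed rat 2 (0.766) and the high value of LSM14A in control rat 5 (0.727). The 13 values of control rat 1 are not independent, since they come from 1 library.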

How the results depend on the processing

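SF3B1, HNRNPA1, SNRPD3 and LSM7 kept their direction in 21 of 21 alternatives, with an unadjusted p under 0.05 in 13, 17, 19 and 19 of them and adjusted p between 0.211 and 0.729 in limma. With the TPM as deposited, 624 genes and 2 of the 37 had an unadjusted p under 0.05, 9 of the 37 were lower in HFD-fed rats, and the median of the 37 was 0.10 (SF3 0.13, U2AF 0.035). The sign then turned for SNRPE (0.045), HNRNPF (0.049), SRSF2 (0.086), SNRPD1 (0.054), LSM14A (0.098), HNRNPD (0.038), HNRNPC (0.084), SNRPN (0.045), SRSF9 (0.053) and U2AF2 (0.10). Upper-quartile scaling turned the sign of LSM14A (0.011) and U2AF2 (0.015). With no filter on low genes, 1 gene had an adjusted p under 0.05, and a minimum mean of 10 left 619 genes with an unadjusted p under 0.05. Sample weights gave 3 genes with an adjusted p under 0.05, 0 of them among the 37, and 1874 genes with an unadjusted p under 0.05, 8 of them among the 37, and turned HNRNPK (-0.010), HNRNPL (0.024), SRSF3 (-0.12), HNRNPH2 (-0.021), SRSF1 (-0.089), HNRNPM (-0.087) and SNRPN (0.083). With the TPM as deposited and control rat 1 left out, the LSM median was -0.14, and the sign turned for SNRPE (0.021), HNRNPK (-0.0028), HNRNPL (0.058), SRSF3 (-0.13), HNRNPH2 (-0.023), SRSF1 (-0.088), HNRNPM (-0.082), SNRPN (0.094) and SRSF9 (0.0020). A replicate block gave 0 genes with an adjusted p under 0.05 and 1141 with an unadjusted one, 3 of them among the 37, and rats that share a number are not pairs in this design.

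Leaving out 1 rat at a time gave 793 to 1441 genes and 2 to 8 of the 37 with an unadjusted p under 0.05, with 8 without control rat 5 and 2 without HFD-fed rat 1, 2 or 3. The LSM median ran from -0.33 to -0.15. The sign turned in at least 1 of these fits for HNRNPC (-0.14 to 0.054), HNRNPH2 (-0.036 to 0.29), HNRNPK (-0.015 to 0.096), HNRNPL (-0.17 to 0.046), HNRNPM (-0.094 to 0.18), LSM14A (-0.037 to 0.039), SNRPD1 (-0.13 to 0.012), SNRPE (-0.11 to 0.0090), SNRPN (-0.15 to 0.082), SRSF1 (-0.10 to 0.068), SRSF2 (-0.052 to 0.011), SRSF3 (-0.14 to 0.10) and U2AF2 (-0.027 to 0.035). The cause of these differences was not tested. A count test was not run, because the values are not counts. Over all rats, the intervals of 11 of the 37 genes reached beyond a 1.41-fold difference.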
